A study of Mus musculus with 24 samples.

Results

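The actin isoforms of mouse were followed in tibialis anterior, a muscle of the lower leg, on 1-colour arrays of total RNA. Every probe was taken whose platform symbol was ACTA1, ACTC1, ACTA2, ACTG2, ACTB or ACTG1. This gave 5 of the 26423 probes, for 4 of the 6 isoforms: 1 each for Acta1, Actc1 and Actb, and 2 for Acta2. No probe in the annotation used here carried the symbols ACTG1 or ACTG2, and these isoforms are not analysed here. The family was selected on the fall of Actc1 in the comparison described below. The differences between the groups are therefore given for its members as a description, without a p-value. Where calls of member probes are stated, they are given for scale and support nothing.

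The control group was 4 mice of genotype Myf6 cre/+; Hira flox/+, and the group labelled Hira CKO was 4 mice of genotype Myf6 cre/+; Hira flox/-. All 8 were 6 weeks old, of mixed C57BL6/J;129S1/SvImJ background, and all carried the cre driver and 1 floxed Hira allele. Hira is a chaperone that places the histone variant H3.3 on DNA. The Myf6 driver acts in muscle fibres. The groups also differ in cells without cre, which keep a floxed allele beside an intact one in controls and beside a null one in Hira CKO. Each animal was measured on 3 arrays, which are repeats of 1 RNA, and the animal is the replicate. Over all probes the median SD was 0.136 log2 between animals of a group and 0.130 log2 between arrays of an animal. The first is of animal means over 3 arrays and the second of single arrays, so they are unlike measures. The Hira probe itself read 495 ± 48.9 in controls and 558 ± 38.9 in Hira CKO (SD, n = 4; 0.17 log2, limma adjusted p 0.193), and its place relative to the deleted exons is unknown here. Directions therefore rest on the labels. Slides and scan dates are unknown here, so a batch of arrays and the groups cannot be told apart.

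Actins are the proteins of thin filaments. Acta1, skeletal actin, and Actc1, cardiac actin, build the thin filaments of sarcomeres: Actc1 is the main form in heart and in embryonic skeletal muscle, and Acta1 replaces it in skeletal fibres as they mature. Acta2 is the actin of vascular smooth muscle, and Actg2 that of gut smooth muscle. Actb and Actg1 are the cytoplasmic actins of nearly every cell. Several of these genes are switched on by serum response factor, Srf, which binds a DNA element called the CArG box and is helped by the cofactors Mrtfa and Mrtfb, whose activity follows the pool of free actin. The coding sequences of the isoforms are nearly identical. The probe sequences were not used here, so signal of 1 isoform at the probe of another cannot be told apart from that isoform's own signal.

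Intensities are linear units, given per animal as the mean of its 3 arrays, and group values are mean ± SD of 4 animals. Differences are Hira CKO minus control on the scale log2(intensity + 16), with the standard error of the limma fit. Levels are compared within a probe and not between probes. In bulk tissue, fewer cells of a type and less RNA per cell cannot be told apart.

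Actc1 was lower in every Hira CKO animal than in any control. In controls 1 to 4 its intensity was 29994, 117349, 80695 and 39161, and in Hira CKO animals 1 to 4 it was 6922, 9577, 16654 and 22226. The highest Hira CKO animal thus lay below the lowest control, which was at 1.35 times its level. The group values were 66800 ± 40277 in controls and 13845 ± 6935 in Hira CKO (SD, n = 4). The difference was −2.21 log2 (SE 0.463, 95% interval −3.24 to −1.18), so that the Hira CKO level was 21.7% of the control level. Ordered from the lowest difference upward, Actc1 had place 32 among the 26423 probes.

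**Figure D1:**
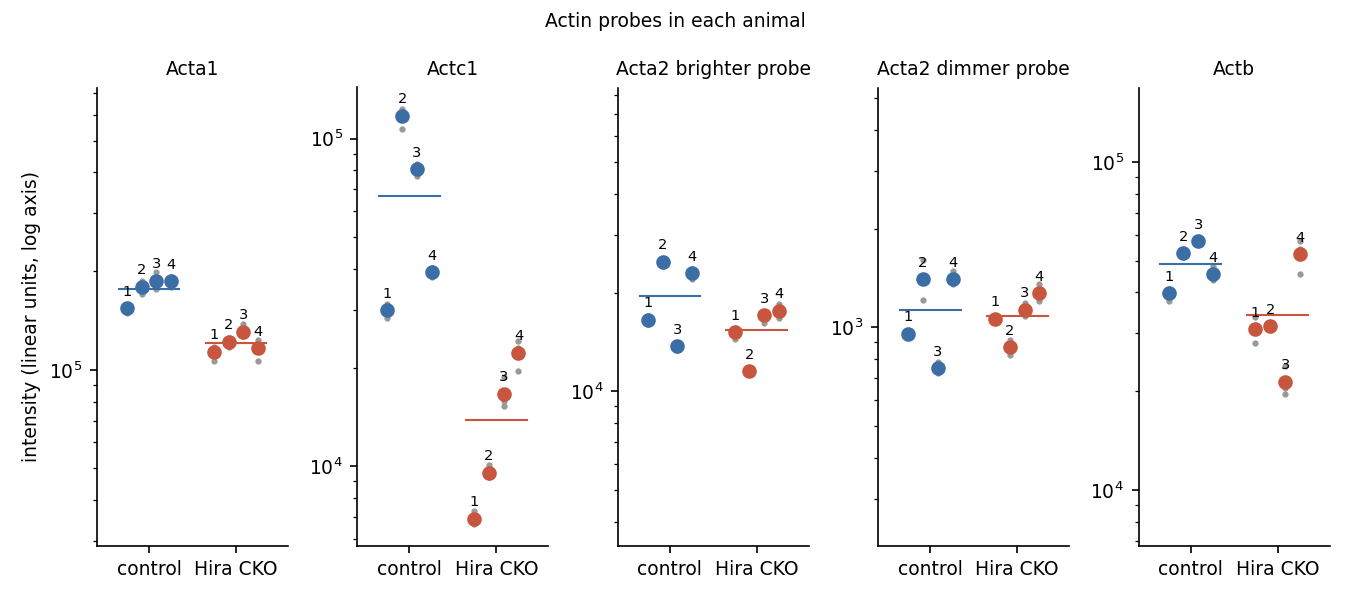
Intensity of each actin probe (linear units on a log axis that spans the same fold range in every panel) in 4 control and 4 Hira CKO animals. Large points are animals, marked with their number, small grey points are their 3 arrays and lines are group means; the Actc1 panel shows the 2 groups apart and, within each, animals several fold apart.

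Actc1 also differed between animals of the same group. The brightest control was 3.91 times the dimmest, and the brightest Hira CKO animal 3.20 times the dimmest. The SD between animals of a group was 0.84 log2, larger than that of 99.8% of all probes, against a median of 0.14 log2 among the 1000 probes nearest to it in level. The repeats of 1 animal were close: in control 2, the brightest animal, the 3 arrays read 121543, 107402 and 123102, and in Hira CKO animal 1, the dimmest, 6781, 6674 and 7311. The SD between single arrays of an animal was 0.101 log2. The SD between animals, taken on means of 3 arrays, was 8.25 times that value. Without 1 animal in turn the difference ranged from −2.52 to −1.87 log2.

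**Figure D2:**
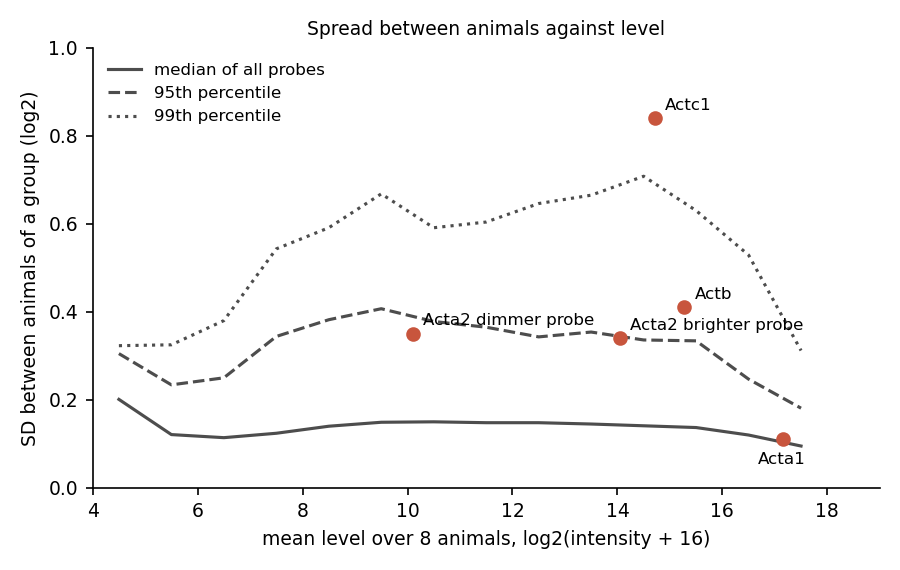
SD between animals of a group (log2) against mean level over the 8 animals for the 5 actin probes (points), with the median, 95th and 99th percentile of all probes in bins of level (lines). Actc1 at 0.84 lies above the 99th percentile line and Acta1 at 0.11 lies near the median line.

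Acta1, the main actin of adult fibres, was also lower in every Hira CKO animal, by a smaller amount. Controls 1 to 4 read 153953, 179420, 186578 and 186521, and Hira CKO animals 1 to 4 read 113313, 121851, 130559 and 116137. The groups did not overlap, and the lowest control was 1.18 times the highest Hira CKO animal. The means were 176618 ± 15479 and 120465 ± 7609 (SD, n = 4), a difference of −0.55 log2 (SE 0.0861, 95% interval −0.74 to −0.36) or 68.3% of the control level. Acta1 was steady between animals of a group, with an SD of 0.11 log2, below that of most probes. Acta1 was among the brightest probes, where the deposited value of a probe is evidently set by its place in the order of brightness on its array. That place was 24 to 49 on the control arrays and 57 to 87 on the Hira CKO arrays, and the 24 arrays held 20 distinct values.

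The difference of Actc1 was larger in size than that of Acta1. Since the fall of Actc1 chose the family, this is a description and supports nothing. The log2 ratio of Actc1 to Acta1 differed between the groups by −1.66 log2 (SE 0.557, from the spread of the 4 ratios in each group). The ratios of the 4 Hira CKO animals all lay below those of the controls. For the ratios to the brighter and dimmer Acta2 probes the values were −1.88 and −2.19 log2, also without overlap. For the ratio to Actb the value was −1.62 log2, and the groups overlapped. The order of the animals differed between the isoforms. Actc1 was highest in control 2, Acta1 in controls 3 and 4, and both were lowest in control 1 and in Hira CKO animal 1 of their groups.

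Promoter windows of Actc1, Acta1 and Acta2 are shown because these are the muscle actins with a probe and differ in how they changed. RefSeq windows of 300 bases (250 before to 50 after the annotated start, assembly GRCm38.p6, read 5′ to 3′ on the gene's strand) were found for 4 of the 6 isoforms. Capitals mark matches to the CArG box, also where 1 of its 6 central bases is G or C. Actc1 is at chr2:114052826-114053125, Acta1 at chr8:123894726-123895025 and Acta2 at chr19:34255324-34255623, all on the minus strand.

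Actc1: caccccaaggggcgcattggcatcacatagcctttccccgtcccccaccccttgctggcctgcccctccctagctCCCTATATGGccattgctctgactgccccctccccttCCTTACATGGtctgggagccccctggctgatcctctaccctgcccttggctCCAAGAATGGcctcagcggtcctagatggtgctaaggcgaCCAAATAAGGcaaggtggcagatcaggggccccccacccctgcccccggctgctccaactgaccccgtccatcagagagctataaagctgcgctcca

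Acta1: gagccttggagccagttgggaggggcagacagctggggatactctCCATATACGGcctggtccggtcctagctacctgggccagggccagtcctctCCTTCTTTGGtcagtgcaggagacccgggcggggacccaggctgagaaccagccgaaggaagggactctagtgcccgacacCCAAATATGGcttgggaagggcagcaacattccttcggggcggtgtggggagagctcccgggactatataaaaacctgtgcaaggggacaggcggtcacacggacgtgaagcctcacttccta

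Acta2: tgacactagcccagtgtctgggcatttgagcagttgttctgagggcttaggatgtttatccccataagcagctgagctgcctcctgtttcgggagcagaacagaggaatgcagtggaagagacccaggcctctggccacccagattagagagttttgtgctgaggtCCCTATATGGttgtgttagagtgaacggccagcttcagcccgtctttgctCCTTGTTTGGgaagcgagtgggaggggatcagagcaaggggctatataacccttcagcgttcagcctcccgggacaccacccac

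The Actc1 window held 1 exact CArG box, starting 47 bases before the annotated start, and 3 matches with 1 G or C in the centre, starting 175, 138 and 87 bases before it. The Acta1 window held 1 exact box, 73 bases before the start, and 2 with 1 G or C, 205 and 154 bases before it. The Acta2 window held 0 exact boxes and 2 with 1 G or C, and the Actg1 window 1 exact box. Of 32817 windows searched, 1.63% held an exact box, 8.50% a box with 1 G or C, and 0.823% at least 2 of either form. An exact box was thus present in the windows of both sarcomeric actins and of Actg1, which has no probe here. The letters TATAAA were found, on either strand, in the Actc1 and Acta1 windows and in 13.6% of all windows. They began 34 bases after the annotated start in Actc1 and 7 bases before it in Acta1. All distances here are from the annotated start, which may differ from the start used in muscle. The letters CATTCC were found, on either strand, in the Acta1 and Acta2 windows and in 14.7% of all. These matches describe the letters and not binding.

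Acta2, the smooth muscle isoform, gave overlapping groups at both probes. At the brighter probe controls 1 to 4 read 16524, 24809, 13717 and 22934, and Hira CKO animals 1 to 4 read 15167, 11514, 17038 and 17618. The means of 19496 ± 5237 and 15334 ± 2753 (SD, n = 4) differed by −0.32 log2 (SE 0.198, 95% interval −0.77 to 0.12). Controls 2 and 4 lay above all other animals, while controls 1 and 3 lay within the range of Hira CKO.

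At the dimmer Acta2 probe controls read 956, 1399, 749 and 1400, and Hira CKO animals 1061, 868, 1129 and 1269. The difference was −0.02 log2 (SE 0.199, 95% interval −0.46 to 0.42). Both probes ordered the Hira CKO animals alike (4, 3, 1, 2), and both put controls 2 and 4 above control 1 and control 3 lowest. The SD between animals was 0.34 log2 at the brighter and 0.35 log2 at the dimmer probe, near the 95th percentile of all probes, so the animals differed in Acta2 in a way that the 2 probes share.

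Of 10 measured smooth muscle and pericyte markers other than Acta2, 0 rose and 4 fell, with a median of −0.11 log2. Over the brightest probes of all 17742 named genes, 11.0% rose and 10.2% fell, with a median of 0.01 log2, and all list counts stand beside these shares. The summed intensity of the markers ranged from 77978 to 82780 in controls and from 73958 to 85120 in Hira CKO. Desmin (Des), which skeletal fibres also express, made up most of that sum, with 45838 to 58645 over the 8 animals. Rgs5, a regulator of G proteins in pericytes, fell by 1.11 log2 (limma adjusted p 0.0137), Mcam, an adhesion protein of vessel walls, by 0.73, Smtn (smoothelin) by 0.41 and Lmod1, which nucleates actin in smooth muscle, by 0.33. The call of Smtn held in 6 of the 8 fits that leave out 1 animal in turn, and the other calls in 8. The smooth muscle genes Tagln (95.7 to 190) and Cnn1 (39.0 to 52.6) were dim, below the array medians of 431.5 to 433.5. Lmod1 was dim too, with means of 157 in controls and 122 in Hira CKO. With the lowest 30% of probes left out, the count of 4 falls was 3. Tagln read 138, 176, 113 and 155 in controls 1 to 4 and 111, 95.7, 166 and 190 in Hira CKO, which is the same order of animals within each group as at the brighter Acta2 probe. The part of smooth muscle content in the Acta2 values was not tested.

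Actb, cytoplasmic beta-actin, was lower in 3 of 4 Hira CKO animals than in any control. Controls 1 to 4 read 39841, 52769, 57430 and 45454, and Hira CKO animals 1 to 4 read 30935, 31541, 21362 and 52415. Hira CKO animal 4 lay within the control range, at 2.45 times animal 3. The means of 48874 ± 7782 and 34063 ± 13093 (SD, n = 4) differed by −0.59 log2 (SE 0.233, 95% interval −1.10 to −0.07). Without Hira CKO animal 4 the difference was −0.82 log2, the largest size among the fits that left out 1 animal and the only one of the 8 in which Actb was called, and without animal 3 it was −0.39 log2. Actb is often used to scale other genes in muscle.

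In the limma fit over all probes, 2 of the 5 actin probes were called, Acta1 and Actc1, both lower, where 10.0% of all probes were called lower and 10.5% higher. The groups did not overlap, with Hira CKO below control, at the same 2 probes and at 12.0% of all probes. These shares are given for scale only, since this comparison chose the family. Among the 100 probes nearest in probe number to Actc1's, 26 were called lower and 5 higher, with a median of −0.07 log2. The part of that stretch of probe numbers in the Actc1 value was not tested. The same count near the brighter Acta2 probe was 16 lower and 4 higher, near the dimmer one 15 and 5, near Actb 11 and 7 and near Acta1 18 and 16.

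**Figure D3:**
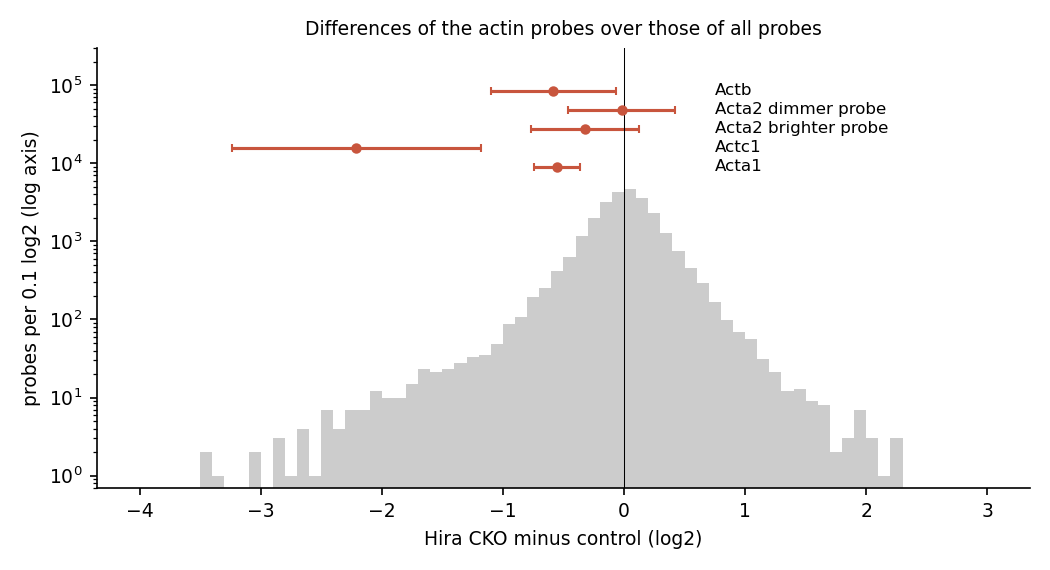
Difference Hira CKO minus control (log2) of the 5 actin probes with 95% intervals (red), over the number of all probes in steps of 0.1 log2 (grey bars, log axis). Actc1 at −2.21 lies in the lower tail, Acta1 at −0.55 and Actb at −0.59 lie to the left of the bulk, and both Acta2 intervals include 0.

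The genes next to Actc1 on chromosome 2 were read in the same way. C130080G10Rik, a long noncoding RNA gene whose annotated start lies 1521 bases from that of Actc1 on the other strand, had intensities of 115, 466, 209 and 122 in controls 1 to 4 and 77.5, 89.7, 83.3 and 126 in Hira CKO. Control 2 stood out as it did for Actc1, and the 4 controls had the same order at both genes, while Hira CKO animal 4 lay above 2 controls. The difference was −0.96 log2 (SE 0.358) and did not pass (limma adjusted p 0.0847). The values of 1 of the 5 other neighbours, Zfp770, did not overlap between the groups (0.23 log2, adjusted p 0.0864), and Gjd2 (−0.20), Arhgap11a (−0.12), Scg5 (−0.16) and Aqr (−0.07) overlapped, with none past the threshold. Beside the other isoforms, Nup133, a nuclear pore gene after Acta1, rose by 0.46 log2 (adjusted p 0.0184, called in 6 of 8 leave-one-out fits; its other probe, at 0.06, did not pass), and Fscn1, the actin bundler after Actb, fell by 0.42 (adjusted p 0.0175). Ccsap (0.10), Stambpl1 (−0.27), Fas (−0.39) and Fbxl18 (−0.03) did not pass.

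**Figure D4:**
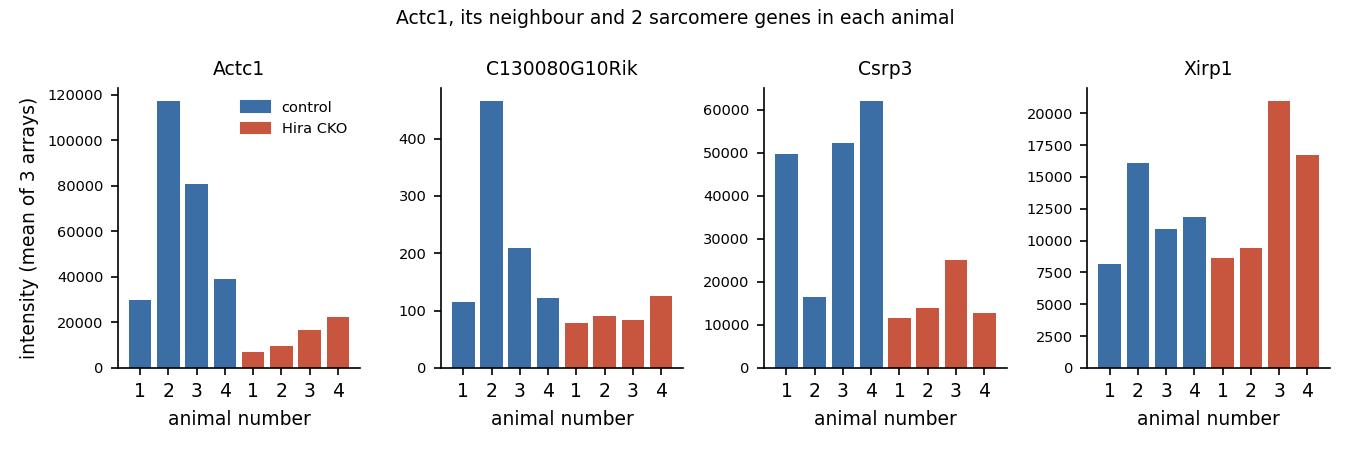
Intensity (mean of 3 arrays) of Actc1, C130080G10Rik, Csrp3 and Xirp1 in each of the 4 control (blue) and 4 Hira CKO (red) animals. Control 2 is the highest control for Actc1, C130080G10Rik and Xirp1 and the lowest for Csrp3.

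The probes whose animal means were most like those of Actc1 had a Pearson r of 0.975 to 0.995 over the 8 animals, among 20372 named probes. They were Gm7694 (0.995), Ampd2 (0.981), an AMP deaminase, Traf5 (0.980), an adaptor of cytokine receptors, Exosc1 (0.978), a subunit of the RNA exosome, and Pum3 (0.975). Their own differences lay between −0.19 and −0.33 log2 for 4 of these 5 and at −1.0 for Pum3. Traf5, for example, read 1726, 2048, 1955 and 1731 in controls and 1497, 1550, 1700 and 1697 in Hira CKO. A likeness over 8 animals in 2 groups partly restates the difference between the groups. By deviations from the group means the closest were Gm7694 (0.986), Traf5 (0.980), Kcng4 (0.979), a potassium channel subunit, Rrm1 (0.979) and A330076H08Rik (0.977), of which Kcng4 was higher in Hira CKO by 0.89 log2 (adjusted p 0.000719). C130080G10Rik was at 0.89 over the animal means and 0.84 over the deviations, in places 295 and 192 of the same 20372 probes. All r values are descriptions over the 8 animals, and the probes named as most like or closest were chosen for likeness.

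Actc1 is also counted among the genes of the fetal and cardiac sarcomere. That list held 22 genes, of which 11 other than the actin isoforms were measured. Of these 11, 1 rose and 1 fell, with a median of 0.00 log2. Csrp3, a Z-disc protein that responds to strain, fell by 1.42 log2 (limma adjusted p 0.0308), a call kept in 2 of 8 leave-one-out fits. It read 49625, 16413, 52317 and 62030 in controls and 11568, 13855, 25090 and 12717 in Hira CKO, so that control 2, highest for Actc1, was lowest of the controls for Csrp3. Smpx, a small muscle protein of the costamere, rose by 0.33 (adjusted p 0.0222, called in 5 of 8 such fits). The cardiac troponins Tnnt2 (0.00 log2), Tnni3 (0.02) and Tnnc1 (−0.15), the stress-responsive Ankrd1 (−0.30) and the natriuretic peptide genes Nppa (0.07) and Nppb (−0.08) did not pass. Of these, Tnnt2, Tnni3 and Nppa were dim, with control means of 404, 153 and 299, below the array medians.

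Of 20 genes listed for the thin filament of skeletal fibres, 2 rose and 2 fell, with a median of −0.06 log2. Klhl41, which stabilises nebulin, rose from 48766 ± 1987 to 65008 ± 2523 (0.41 log2, limma adjusted p 0.00265), and Lmod3, a nucleator of sarcomeric actin, from 13418 ± 882 to 17587 ± 1362 (0.39 log2, adjusted p 0.00954; SD, n = 4). Neb, the giant protein along the thin filament, fell by 0.38 log2 (adjusted p 0.0182) and Tpm3, the slow fibre tropomyosin, by 0.37 (adjusted p 0.0270), with calls kept in 6 and 2 of the 8 leave-one-out fits. The fast troponins Tnnt3 (−0.01), Tnni2 (−0.10) and Tnnc2 (0.17) and the main tropomyosins Tpm1 (0.16) and Tpm2 (0.25) did not pass. The summed intensity of the list ranged from 1209243 to 1317173 in controls and from 1195633 to 1293127 in Hira CKO, so that the groups overlapped.

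Of 18 measured regulators and targets of Srf and the Mrtf cofactors, 2 rose and 2 fell, with a median of −0.10 log2. Mrtfb fell by 0.39 log2 (limma adjusted p 0.00395), while its other probe (−0.06) did not pass, and Ckm, muscle creatine kinase, by 0.28 (adjusted p 0.0442, called in 2 of 8 leave-one-out fits). Fhl2, a LIM protein that binds Srf, rose from 208 ± 29.9 to 469 ± 33.3 (SD, n = 4; 1.12 log2, adjusted p 9.02e-05), and Fhl1 was called higher by 0.63 (adjusted p 0.0252, called in 6 of 8 such fits). The Fhl1 value rests in part on 1 array: control 1 read 25542 on its array 1 and 239031 and 272180 on the others. With array 2 or 3 of each animal alone the difference was 0.42 and 0.41 log2 (adjusted p 0.0379 and 0.102), and in the fit on all arrays Fhl1 was not called (adjusted p 0.259). The count of 2 rises was 1 in that fit, on array 1 or 3 alone and without Hira CKO animal 1 or 2. The count of 2 falls was 1 without control 3 or 4 or Hira CKO animal 1 or 2, and 4 without control 1 and in the fit on all arrays. Srf itself did not pass at either probe (−0.27 and −0.35 log2, adjusted p 0.0646 and 0.126), nor did Mrtfa (−0.14), Abra, which activates the Mrtf cofactors (−0.66), or the early Srf targets Egr1 (−0.72) and Fos (0.10). Junb, another early target, did not pass at its brighter probe (−0.50) and was called lower at its dimmer one (−0.84, adjusted p 0.026). Xirp1, a Z-disc repair gene listed with the fetal sarcomere, read 8156, 16108, 10893 and 11839 in controls and 8600, 9388, 20984 and 16719 in Hira CKO (0.14 log2, adjusted p 0.764), with overlapping groups. The highest, Hira CKO animal 3, read 26358, 28536 and 8059 on its arrays. None of the 5 actin probes had an array over 1 log2 from the median of its animal.

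Of 22 measured genes for binding and turnover of actin monomers, 1 rose and 7 fell, with a median of −0.06 log2. Cap2, which recycles actin monomers in muscle, fell from 32225 ± 1535 to 21320 ± 1741 (SD, n = 4; −0.60 log2, limma adjusted p 0.000789) and also at a second probe (−0.43). Coro6, a coronin, fell by 0.74 log2 and Twf2, a twinfilin, by 0.63. Their other probes, at −0.15 and −0.08, were not called. Cap1 fell by 1.56 log2 (adjusted p 0.0395, called in 3 of 8 leave-one-out fits). The monomer binders Pfn1 (−0.03) and Tmsb4x (−0.07) did not pass. Tmsb4x was dim, with means of 134 in controls and 129 in Hira CKO, below the array medians. Cfl2, the muscle cofilin, did not pass at its brighter probe (0.13) and was called lower at its dimmer one (−0.91), so its probes disagree.

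Of 23 measured actin crosslinkers and anchors, 1 rose and 8 fell, with a median of −0.12 log2. Pdlim7, a Z-disc adaptor, fell by 1.05 log2 (limma adjusted p 0.000505) and was called at its other probe too (−1.24). Talin-1 (Tln1), which ties integrins to actin, fell by 0.57 and the bundler Dbn1 by 0.55, and Flnc, the muscle filamin, by 0.48, a call kept in 2 of 8 leave-one-out fits. The alpha-actinins of the Z-disc, Actn2 (0.20) and Actn3 (−0.06), did not pass. The rise was in Lcp1, a plastin of white blood cells (0.47 log2), named after its values were seen.

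Of 32 measured genes that start or extend filaments, 4 rose and 4 fell, with a median of −0.05 log2, and 2 rose without control 2. Wasf1, an activator of the Arp2/3 complex, rose from 531 ± 20.4 to 1038 ± 28.8 (SD, n = 4; 0.95 log2, limma adjusted p 1.87e-05), and the formin Fmnl2 rose by 0.52. Fhod1, another formin, fell by 0.73 and Arpc1a, a subunit of Arp2/3, by 0.57. Of 14 actin-related proteins 2 rose and 0 fell: Actr6, a subunit of a complex that exchanges histone H2A.Z (0.50 log2, adjusted p 0.00132), and the dim Actrt3 (0.32 log2, called in 4 of 8 leave-one-out fits). Of 17 measured genes in the list of actin folding and modification, which also holds the myosin chaperone Unc45b, 2 rose and 1 fell. Tcp1, a subunit of the chaperonin that folds actin, rose by 0.52 log2 and Unc45b by 0.53. Setd3, the enzyme that methylates a histidine of actin, fell by 0.49 (adjusted p 0.00209).

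**Figure D5:**
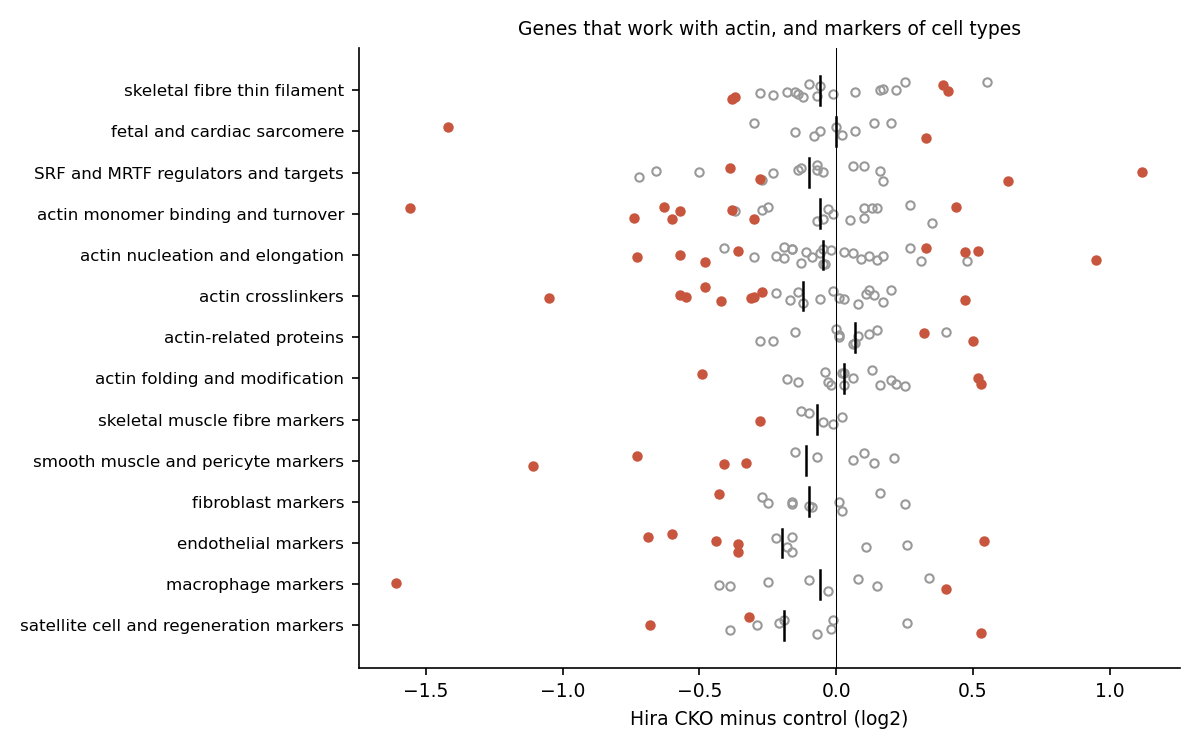
Difference Hira CKO minus control (log2) of each measured gene of 14 lists at its brightest probe. Filled red points passed the adjusted threshold, open points did not, and black bars are list medians, which lie between −0.20 and 0.07.

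Markers of the cell types in dissected muscle are given for every measured member of each list. Measured were 6 of 12 skeletal fibre, 10 of 14 smooth muscle and pericyte, 11 of 12 fibroblast and 12 of 12 endothelial markers. Of the macrophage markers 10 of 11 were measured, and of the satellite cell and regeneration markers 11 of 16. Myod1, Myog, Myh3 and Myh8 of the last list were not among them. Of 6 measured skeletal fibre markers 0 rose and 1 fell (Ckm), with a sum of 1312405 to 1518539 in controls and 1272956 to 1344293 in Hira CKO. All 6 lay above the array median, as the tissue label asks. Of 12 endothelial markers 1 rose (Eng, 0.54 log2) and 5 fell, among them Egfl7 (−0.69), Kdr (−0.60) and Emcn (−0.44). Their sum ranged from 71774 to 88979 in controls and from 57508 to 63316 in Hira CKO and did not overlap. The absence of overlap rested on Egfl7, by a check without it that was added after the sums were seen. The other 11 markers summed to 42488 to 50560 in controls and 40068 to 43051 in Hira CKO. These ranges overlap, with the lowest control at 0.987 times the highest Hira CKO animal. The count of 5 falls dropped to 3 with the animal number as a block and without any 1 of controls 1 and 4 and Hira CKO animals 1, 2 and 4. Pecam1 and Esam (−0.36 log2 each) were called in 2 of 8 leave-one-out fits. The 2 other probes of Pecam1, at −0.21 and −0.22 log2, were not called.

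Of 11 fibroblast markers 0 rose and 1 fell (Pi16, −0.43 log2, called in 1 of 8 leave-one-out fits). Their sum was 156735 to 198709 in controls and 138340 to 195847 in Hira CKO. Of 10 macrophage markers 1 rose (Itgam, 0.40 log2, called in 2 of 8 such fits) and 1 fell (Cx3cr1, −1.61), with sums of 7208 to 10476 and 7292 to 9603. Cx3cr1 was dim, with means of 217 in controls and 60.5 in Hira CKO, below the array medians. With the lowest 30% of probes left out, 0 macrophage markers were called lower. Of 11 measured satellite cell and regeneration markers 1 rose (Megf10, 0.53 log2) and 2 fell. These were Chrng, the fetal subunit of the acetylcholine receptor (−0.68), and Sdc3 (−0.32). Chrng read 117 on array 2 of Hira CKO animal 1 and 582 and 588 on its other arrays, and with array 1 or 3 of each animal alone it was not called (−0.22 and −0.37 log2). The list had sums of 16773 to 20465 and 14166 to 19119. The part of these cell types in the actin values was not tested.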

How the data were processed

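Total RNA of tibialis anterior was labelled with Cy5 and hybridised to 24 arrays, 3 for each of 8 mice, per the labels' protocols. The deposited table holds a linear intensity for each of 26423 probes. The authors had normalized it, as judged from the values: array medians were 431.5 to 433.5, the highest value was 439069.7 on all arrays, and 81.1% of values fell within 0.001 of a multiple of 1/24, the pattern left by quantile normalization. Background was evidently subtracted, since 50 values were at or below 0. The sources used here name neither the software nor detection calls. The precision of the comparison is limited by the 4 animals of each group.

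Values below 0 were set to 0, 16 was added and log2 taken. The arrays of each animal were averaged before the comparison, made with limma (version 3.58.1, R 4.3.3; lmFit and eBayes) and adjusted by Benjamini-Hochberg over all probes at 0.05. Fold changes understate dim probes. The fit was tested on simulated data. Platform symbols named 20377 probes, and 6046 are unnamed here. Symbols were updated through RefSeq (GRCm38.p6): 18213 were current, 2126 synonyms and 38 kept. A list gene was read at its brightest probe, and actin isoforms were left out of the lists. Named genes were all member probes, up to 4 called list members with the largest difference, measured neighbours (3 on either side of Actc1, 1 for the others), the 5 probes most like Actc1 by either measure, and Hira. Further genes named with values were chosen after these were seen. The members and lists were chosen with earlier results of these data known. Alternatives were pseudocounts of 1 and 50, quantile or median scaling, leaving out the lowest 30% of probes, array-level and single-array fits, the animal number as a block, a trended robust fit, any probe of a gene, and each animal left out. Figures were drawn with matplotlib 3.10.9.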

Additional observations from a re-analysis of the deposited data

Results flagged for a closer look

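None of the 5 actin probes had an animal that stood apart from the other 3 of its group by Dixon's criterion for 4 samples (the gap to the nearest animal over the range of the group). Of 134 groups tested over 67 probes 8 did, where chance gives about 1 in 20. Control 1 was the highest control for Hira (569 against 467 to 473, gap over range 0.938) and Itgam (420 against 308 to 320, 0.876), and the lowest for Klhl41 (45808 against 49563 to 50093, 0.889) and Zfp770 (1340 against 1579 to 1609, 0.899). Control 4 was the lowest for Lmod3 (12109 against 13686 to 13997, 0.839). Among Hira CKO animals, animal 2 was the lowest for Arpc1a (2041 against 2237 to 2259, 0.949), animal 4 the highest for Mcam (2741 against 1841 to 1929, 0.879), and animal 3 the lowest for Cap1 (352 against 1566 to 2066, 0.841).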

How the results depend on the processing

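In the 19 other settings tried (11 other treatments of the data and 8 fits that each left out 1 animal), Actc1 and Acta1 were called lower in each and both Acta2 probes in 0; since the fall of Actc1 chose the family, these calls are a description and support nothing. Actb was called in 2, the fit on all arrays and the fit without Hira CKO animal 4. Without 1 animal the difference ranged from −2.52 to −1.87 log2 for Actc1, −0.61 to −0.52 for Acta1, −0.82 to −0.39 for Actb, −0.48 to −0.19 for the brighter and −0.20 to 0.10 for the dimmer Acta2 probe. With array 1, 2 or 3 of each animal alone, the probes called higher were 1522, 1269 and 1577 and those called lower 1669, 1579 and 1547, and the list genes called lower were 25, 24 and 23, with 11 called higher on array 1, where each animal rests on 1 array. Without 1 animal the probes called higher ranged from 1841 (without Hira CKO animal 1) to 2634, those called lower from 1817 to 2499, and the list genes called from 14 to 21 higher and 26 to 36 lower. With the animal number as a replicate block, 2505 probes were called higher and 2420 lower. The deviations of same-numbered animals from their group means had correlations of 0.30, 0.09, −0.06 and 0.07 for numbers 1 to 4. The highest correlations with another number were 0, 0.11, 0.09 and 0.17. Only for number 1 was the same-numbered value the higher, and whether the numbers pair any animals is unknown here. By list, falls without 1 animal ranged from 0 to 3 for thin filament, 4 to 7 for monomer binding, 5 to 7 for crosslinkers, 1 to 4 for Srf and 3 to 6 for nucleation genes and 3 to 5 for endothelial markers; rises ranged from 2 to 5 for nucleation and 1 to 2 for Srf genes.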
